A study of Saccharomyces cerevisiae with 14 samples.

Results

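Xrn1-sensitive unstable transcripts (XUTs) are the noncoding RNAs of budding yeast followed here, chosen as every feature listed in the XUT section of the annotation against which the libraries were counted. That section holds 1495 of the 21289 features in all, and 979 of the XUTs had at least 1 sense read in the 14 libraries. The libraries came from CRAC, in which RNA is crosslinked to a tagged protein by ultraviolet light, purified with the protein and sequenced as cDNA, so a read count reflects crosslinking and purification as well as transcript abundance. The tagged strains were derived from BY4741 and carried an HTP tag (histidines, a TEV protease site and protein A) on 1 protein. The groups were Hel2-HTP in new1Δ cells, New1-HTP in NEW1 wildtype cells, Hel2-HTP in NEW1 wildtype cells and untagged BY4741 at 20°C, and Hel2-HTP in new1Δ cells, Hel2-HTP in NEW1 wildtype cells and untagged BY4741 at 30°C. There were 2 replicates of each of the 7 groups, which makes 10 tagged and 4 untagged libraries. Hel2 is a ubiquitin ligase that recognises collided ribosomes, and New1 is an ATPase linked to translation termination and ribosome recycling.

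XUTs are transcribed by RNA polymerase II, capped and polyadenylated, and accumulate when the cytoplasmic 5′ to 3′ exonuclease Xrn1 is missing. Many run antisense to protein-coding genes. Like mRNAs they reach the cytoplasm, where decapping and nonsense-mediated decay act on many of them, and they differ in this from cryptic unstable transcripts (CUTs), which the nuclear exosome removes, and from stable unannotated transcripts (SUTs), which persist in wildtype cells. No label names a change at XRN1 in any of the groups, so Xrn1 was present in all of them as far as the labels state.

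Library depth differed widely. Reads assigned to features ranged between 1382670 and 4109446 in the tagged libraries and between 1094 and 1954300 in the untagged ones, with 1094 and 103436 in untagged cells at 20°C. A read was counted on every feature it overlapped, so there were 1.32 to 1.68 feature reads per mapped read. NEW1 itself had 0 and 0 reads in Hel2-HTP new1Δ cells at 20°C and 0 and 7 at 30°C, against 363 and 1192 at 20°C and 220 and 105 at 30°C in Hel2-HTP wildtype cells. The file headers of replicate 2 of Hel2-HTP new1Δ and of New1-HTP at 20°C carry an input name of a different strain. The barcodes in those headers matched the labelled samples. NEW1 reads could check the Hel2-HTP new1Δ library, which had 0, and not the New1-HTP one, whose strain carries NEW1. That New1-HTP library had 143 HEL2 reads, against 1 in replicate 1. That Hel2-HTP new1Δ library had 0 HEL2 reads, against 120 to 515 in the other Hel2-HTP libraries, and the cause was not tested. The labels of both were kept, and results that move without either library are given without it. Growth, RNase time and library preparation differed between the temperatures, so that temperature and preparation cannot be told apart.

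The annotated XUTs were 252 to 5195 nt long, with a median of 709 nt. Of the 1495 members, 764 carry a name for the F strand and 731 for the R strand, and all 16 nuclear chromosomes hold some, between 26 on chromosome 6 and 194 on chromosome 4. The tables give no XUT coordinates, so positions are stated by the chromosome number and strand within the name. Thus XUT_9F-4 lies on the F strand of chromosome 9.

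Sense reads were thinly and irregularly spread over the members. No sense read was counted for 516 XUTs, 427 had sense reads in a single library, 726 were seen only in tagged libraries, 46 only in untagged ones and 207 in both. Reads were found in at least 5 of the 10 tagged libraries for 91 XUTs, in at least 8 for 22 and in all 10 for 7. The 7 were XUT_12F-188, XUT_11R-171, XUT_12R-113, XUT_15R-293, XUT_2F-282, XUT_11F-88 and XUT_9F-189, and even among these XUT_9F-189 had no more than 16 reads in any library.

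Longer XUTs were seen more often. The median length was 537 nt for the 562 XUTs without a read in tagged libraries, 668 nt for the 429 seen in 1 tagged library, 1073 nt for the 413 seen in 2 to 4 and 1465 nt for the 91 seen in 5 to 10. Across the 933 XUTs seen in tagged libraries, length and mean level (share of feature reads) had a Spearman correlation of 0.28, given as a description because the points share libraries and neighbouring transcripts.

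**Figure D1:**
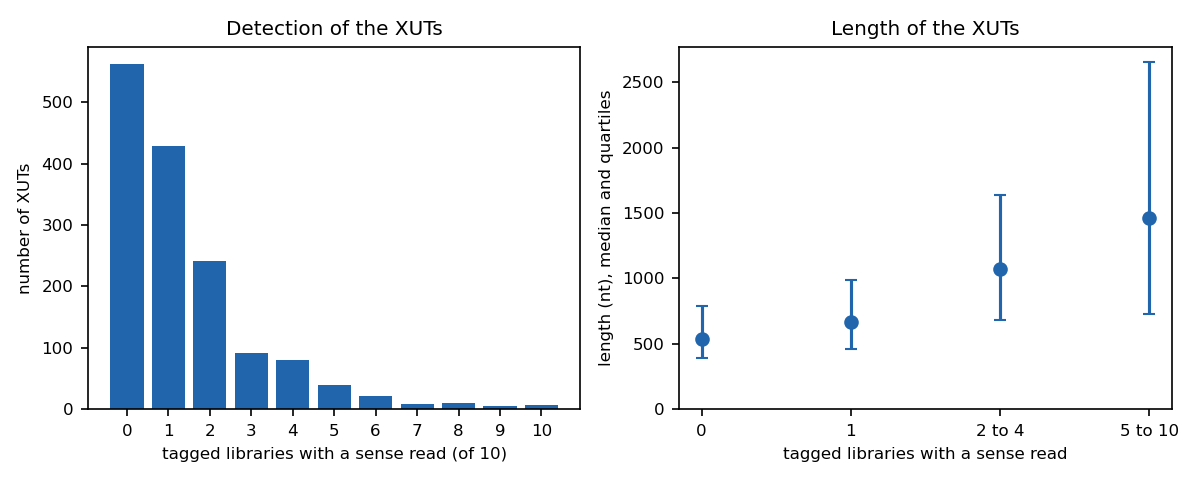
The left panel shows how many XUTs had a sense read in 0 to 10 tagged libraries, and the right panel the median length in nt (point) with quartiles (bars) by the same measure. Most XUTs had reads in 0 or 1 tagged library, and the median length rises across the 4 bins, with 537 nt in the first and 1465 nt in the last.

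Reads over an XUT are shared with other annotated features, which limits what a count on an XUT can be taken to measure. Among the 232 XUTs with at least 50 sense reads and reads in at least 3 libraries, 98 (42.2%) had exactly the same sense reads in all 14 libraries as a feature outside the XUT section, and 173 (74.6%) had a feature whose summed difference was within 10% of the reads of the XUT. Of the 98, 53 matched a SUT, 26, 23 and 14 an antisense transcript of 1 of the 3 antisense catalogues, 10 and 9 an intergenic feature of either intergenic list, and 6 a CUT. An XUT can match several, as XUT_5F-239 matched both SUT098 and intergenic-48, and XUT_15F-200 matched SUT366, Unit358 and YOR049C-as. For 25 exact matches that name the antisense of a coding gene, the gene lay on the chromosome and opposite the strand of the XUT name in 25 of 25.

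**Figure D2:**
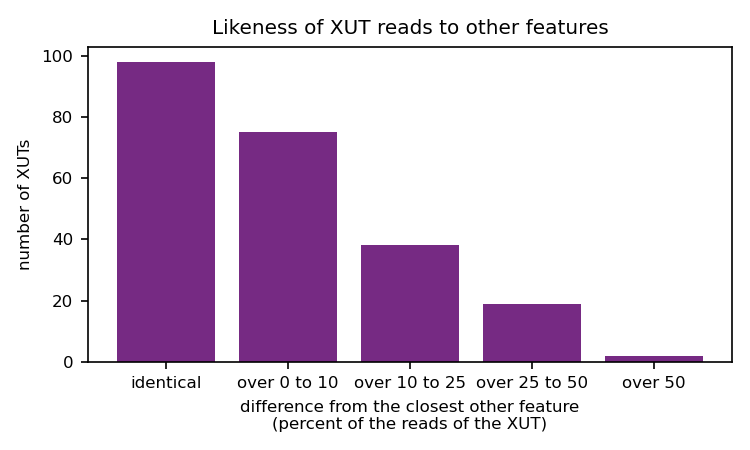
Bars give the number of XUTs, of 232 with at least 50 sense reads in at least 3 libraries, by the summed absolute difference between the reads of the XUT and those of the closest other feature, as a percent of the reads of the XUT. The tallest bar is the 98 XUTs with identical reads, and 2 XUTs differ by over 50%.

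The opposite strand of XUTs carried far more reads than the XUTs themselves. Sense reads made up 5.20% to 14% of the reads on both strands of XUTs in the tagged libraries, so the antisense strand had 6.14 to 18.2 times as many reads. Antisense reads outnumbered sense reads at 1066 XUTs and the reverse held at 411, while 180 XUTs had sense reads and no antisense read. For 698 XUTs with at least 50 antisense reads and reads in at least 3 libraries, 122 (17.5%) had antisense reads within 10% of the reads of a coding gene on the opposite strand of the same chromosome, and 48 of these were identical in every library.

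Named genes illustrate the pairing, with positions from RefSeq on the R64 assembly. XUT_9F-139 had 948 antisense reads, the same as BCY1 (chromosome IX, 290419 to 291669), the regulatory subunit of protein kinase A. XUT_13R-73 had 522, the same as GAL80 (chromosome XIII, 171594 to 172901), the repressor of the galactose genes, and XUT_7R-93 had 955, the same as AMS1, a vacuolar mannosidase (chromosome VII, 210416 to 213667). XUT_14R-264 had 981, the same as PBI2, an inhibitor of vacuolar proteinase B. The XUTs with most antisense reads had no such match. By read count and not by position, the closest gene to the 14525 antisense reads of XUT_13R-88 was RPS16A, which encodes a small ribosomal subunit protein. For the 11506 antisense reads of XUT_5F-128 it was RPL34A, which encodes a large ribosomal subunit protein. These counts differed by 60.2% and 23.8% in sum and do not place either gene opposite its XUT.

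The share of all feature reads that fell on the sense strand of XUTs was compared between tagged and untagged libraries to set the crosslinked signal beside background. It was 0.153% and 0.0733% in Hel2-HTP new1Δ cells, 0.188% and 0.216% in New1-HTP cells and 0.184% and 0.166% in Hel2-HTP wildtype cells at 20°C, against 0.274% and 0.288% in untagged cells. At 30°C it was 0.235% and 0.169% in Hel2-HTP new1Δ cells and 0.172% and 0.187% in Hel2-HTP wildtype cells, against 0.518% and 0.737% in untagged cells. All 10 tagged libraries were below all 4 untagged libraries. The mean was 0.174% ± 0.0431 (SD, n = 10) in tagged and 0.454% ± 0.219 (SD, n = 4) in untagged libraries (exact permutation test of the difference of means, two-sided, p = 0.000999, the smallest that 1001 assignments allow, 0.0040 after Benjamini-Hochberg adjustment over 4 such tests and 0.00999 over a wider family of 20). The exchange of all 14 libraries sets aside that they come from 7 groups, and the same direction held within each temperature, with 0.163% ± 0.0491 (SD, n = 6) in tagged and 0.281% ± 0.00981 (SD, n = 2) in untagged libraries at 20°C (exact permutation p = 0.0357, adjusted 0.0893 over 20 tests) and 0.191% ± 0.0307 (SD, n = 4) against 0.627% ± 0.155 (SD, n = 2) at 30°C (exact permutation p = 0.0667, the smallest possible, adjusted 0.121).

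The untagged libraries at 20°C hold few XUT reads. Untagged replicate 1 had 3 sense reads on XUTs, and its share of 0.274% had a Wilson 95% interval of 0.0933% to 0.803%, which covers all tagged shares except that of Hel2-HTP new1Δ replicate 2 at 20°C. Replicate 2 had 298 reads on only 5 XUTs, of which XUT_7F-475 took 116, XUT_2F-340 109 and XUT_1F-90 71. XUT_7F-475 and XUT_2F-340 had 0 reads in Hel2-HTP wildtype cells at 20°C and no more than 1 read in any tagged library. Without the 2 untagged libraries at 20°C the difference was 0.453 percentage points, again lower in tagged libraries (exact permutation p = 0.0152, the smallest 66 assignments allow). The intervals cover counting error only.

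**Figure D3:**
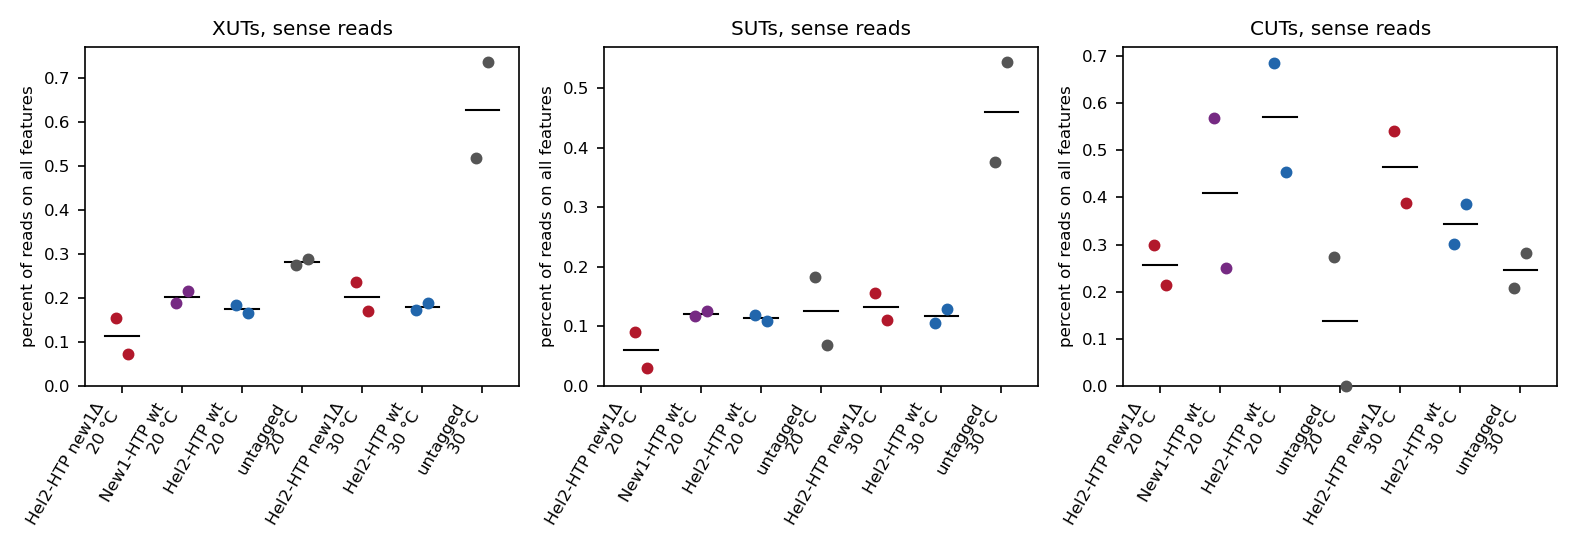
Points are the 2 replicates of each group and lines their means, for sense reads on XUTs (left), SUTs (middle) and CUTs (right) as a percent of reads on all features. Untagged libraries have the highest XUT shares at each temperature, 0.274% to 0.737%, whereas the CUT share is lower in untagged libraries than in most tagged ones.

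The mean SUT share was also lower in tagged libraries and the mean CUT share higher, both with overlapping values and neither past the threshold after adjustment. The SUT share averaged 0.109% ± 0.0331 (SD, n = 10) in tagged and 0.293% ± 0.210 (SD, n = 4) in untagged libraries (exact permutation p = 0.0180, adjusted 0.0599 over 20 tests). The CUT share averaged 0.409% ± 0.153 (SD, n = 10) in tagged and 0.191% ± 0.132 (SD, n = 4) in untagged libraries (exact permutation p = 0.0280, adjusted 0.0799). Untagged replicates 1 and 2 at 20°C held only 3 and 0 CUT reads and 2 and 71 SUT reads. XUTs had 1.44 to 2.52 times the reads of SUTs in tagged libraries and 1.36 to 4.2 times in untagged ones, and this ratio did not differ beyond its spread (exact permutation test on log2 ratios, p = 0.678). As many SUTs and XUTs share their reads, the SUT share is no independent measurement.

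The lower tagged share was also found over XUTs without a near-identical counterpart. Such XUTs may still share their reads with a larger feature that has more reads, which a match of counts does not find. Of the 979 XUTs with reads, 869 had a feature outside the section within 10% of their reads, which for XUTs with few reads is easily met, and over the other 110 the share averaged 0.0541% ± 0.0111 (SD, n = 10) in tagged and 0.134% ± 0.0539 (SD, n = 4) in untagged libraries (exact permutation p = 0.000999, adjusted 0.00999 over 20 tests). Counted as distinct cDNAs, which the tables give for both strands together and which are therefore mostly antisense reads, the shares overlapped. XUTs then held 1.22% ± 0.199 (SD, n = 10) of cDNAs in tagged and 1.45% ± 0.622 (SD, n = 4) in untagged libraries (exact permutation p = 0.323). Within XUTs that had no antisense read, each cDNA was read 2.86 to 11.1 times in tagged libraries, so read counts contain PCR copies.

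Sense reads were a smaller part of the reads over XUTs in tagged than in untagged libraries at 30°C, without passing a test that 4 libraries against 2 allow. Sense reads were 7.51% and 5.20% of both strands in Hel2-HTP new1Δ cells, 10.6% and 9.97% in New1-HTP cells and 9.17% and 8.74% in Hel2-HTP wildtype cells at 20°C, against 5% and 17.1% in untagged cells. They were 14% and 7.74% in Hel2-HTP new1Δ cells and 10.6% and 11.3% in Hel2-HTP wildtype cells at 30°C, against 30.5% and 32.3% in untagged cells. The untagged 5% at 20°C rests on 3 sense and 57 antisense reads. Of the 1440 antisense reads behind the untagged 17.1%, 1121 lay on XUT_12F-188. The 20°C comparison therefore rests on few reads and largely on 1 XUT. The tagged and untagged values did not overlap at 30°C (exact permutation p = 0.0667, the smallest possible, adjusted 0.121 over 20 tests) and did at 20°C (exact permutation p = 0.5, adjusted 0.556). Over all libraries the mean was 9.49% ± 2.42 (SD, n = 10) in tagged and 21.2% ± 12.8 (SD, n = 4) in untagged libraries (exact permutation p = 0.0170, adjusted 0.0340 over 4 tests but 0.0599 over the 20), and it rests on the untagged libraries at 30°C, since p = 0.0594 without either one. The sense percent was also lower in tagged libraries for SUTs, 11.5% ± 4.00 (SD, n = 10) against 41.8% ± 23.2 (SD, n = 4), and higher for CUTs, 42.6% ± 9.90 (SD, n = 10) against 16.9% ± 16.8 (SD, n = 4) in untagged libraries (exact permutation p = 0.0040 and 0.0050, adjusted 0.0250 over 20 tests for both). The untagged CUT values at 20°C rest on 3 sense and 46 antisense reads in replicate 1 and on 0 and 1 in replicate 2. The SUT values there rest on 2 and 12 reads and on 71 and 29. At 30°C the untagged CUT values were 36.3% and 25.4%, against 36.4% to 54.8% in tagged libraries. In the same untagged libraries at 30°C, sense reads were also a smaller part of the protein-coding reads, 48.6% and 64.2%, against 76.0% to 81.5% in the tagged libraries at 30°C, and the part of this in the XUT result was not tested.

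**Figure D4:**
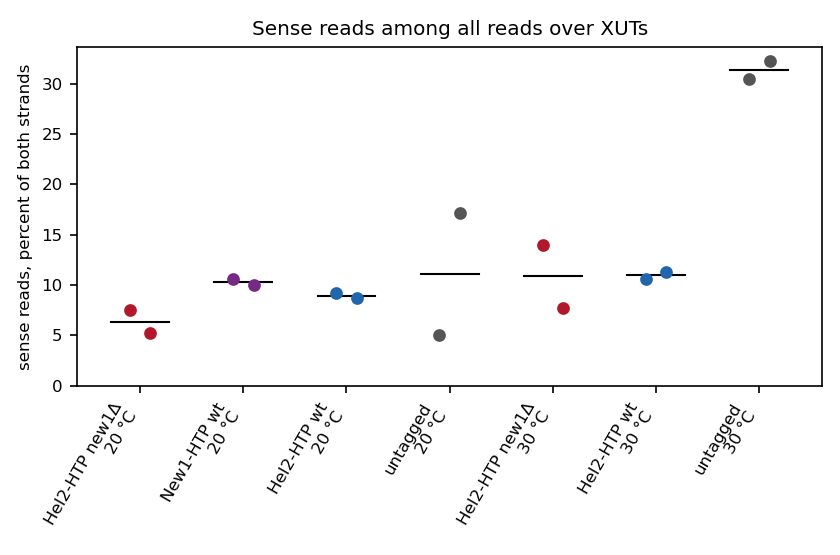
Points are the 2 replicates of each group and lines their means, for sense reads as a percent of reads on both strands of all XUTs. The untagged libraries at 30°C, at 30.5% and 32.3%, are above all other libraries.

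The new1Δ and wildtype shares of Hel2-HTP libraries overlapped at 30°C, while at 20°C both new1Δ shares were below both wildtype shares. Over both temperatures the mean difference was -0.0193 percentage points (exact permutation test with labels exchanged within a temperature, two-sided, p = 0.556, smallest possible p = 0.0556). At 20°C the share averaged 0.113% ± 0.0566 in Hel2-HTP new1Δ cells and 0.175% ± 0.0128 in Hel2-HTP wildtype cells (SD, n = 2 each, exact permutation p = 0.333, the smallest 2 against 2 allows). At 30°C it averaged 0.202% ± 0.0467 in Hel2-HTP new1Δ cells and 0.179% ± 0.0110 in Hel2-HTP wildtype cells (SD, n = 2 each). The pooled direction rests on replicate 2 of Hel2-HTP new1Δ at 20°C, the library with 0.0733%, since the difference was 0.00892 percentage points without it. Hel2-HTP libraries averaged 0.144% ± 0.0488 at 20°C and 0.191% ± 0.0307 at 30°C (SD, n = 4 each, exact permutation p = 0.114, adjusted 0.19 over 20 tests). The header of the library with 0.0733% is one of those that name another strain, and it had the fewest feature reads of the tagged libraries.

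New1-HTP libraries had the higher shares at 20°C, and the test could not reach 0.05. The share averaged 0.202% ± 0.0204 (SD, n = 2) in New1-HTP cells, and all 4 Hel2-HTP libraries at 20°C were lower, at 0.0733% to 0.184% (exact permutation p = 0.2, with 0.0667 the smallest possible). Against Hel2-HTP wildtype cells alone the New1-HTP shares were 1.16 times as high, and 2 libraries against 2 cannot go below 0.333.

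Replicates differed in which XUTs carried reads. Of the XUTs with at least 10 reads in one tagged library, 43.1% to 75.7% had no read in the other replicate of the group, against 3.6% to 44.2% of protein-coding features. The Spearman correlation of read counts between replicates over all XUTs was 0.19 to 0.25 in tagged groups and 0.51 to 0.62 over protein-coding features. Differences of single XUTs between groups therefore rest on few libraries.

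A few XUTs held much of the signal of each library, and the 10 with the most reads in a library took 12% to 59.7% of its XUT reads in tagged libraries. The 10 XUTs with the highest mean level over tagged libraries are described by their reads and by RPM, the reads scaled to 1e6 feature reads of the library and not corrected for length. XUT_9F-4, the longest XUT at 5195 nt, had 56.7 RPM on average in tagged libraries, from 78 and 0 reads in Hel2-HTP new1Δ cells, 0 and 115 in New1-HTP cells and 191 and 589 in Hel2-HTP wildtype cells at 20°C, and from 542 and 73 in Hel2-HTP new1Δ cells and 107 and 51 in Hel2-HTP wildtype cells at 30°C. Untagged cells had 92 and 23 reads of XUT_9F-4 at 30°C and none at 20°C. Scaled to depth, both Hel2-HTP wildtype libraries were above the other tagged libraries at 20°C. At 30°C the levels were 132 and 52.1 RPM in Hel2-HTP new1Δ cells and 32.5 and 35.4 RPM in Hel2-HTP wildtype cells, so the groups did not overlap and new1Δ was the higher, the other way round from 20°C, and neither difference passed the edgeR test (adjusted p = 0.95 at 20°C and 1 at 30°C).

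XUT_14F-269, 351 nt long, had the highest level per length, 108 RPM per kb. It had 6 and 0 reads in Hel2-HTP new1Δ cells, 317 and 76 in New1-HTP cells and 113 and 373 in Hel2-HTP wildtype cells at 20°C, with 18 and 13 in Hel2-HTP new1Δ cells and 115 and 11 in Hel2-HTP wildtype cells at 30°C. It had 0 reads in all 4 untagged libraries, and no antisense read in any library. The 2 Hel2-HTP new1Δ libraries at 20°C were below the 2 of Hel2-HTP wildtype.

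XUT_16F-272 and XUT_15R-430 had their highest reads at 20°C in different groups, though both had 75 reads in replicate 2 of Hel2-HTP new1Δ. XUT_16F-272 (104 RPM per kb) had 288 and 75 reads in Hel2-HTP new1Δ cells, 0 and 1 in New1-HTP cells and 96 and 0 in Hel2-HTP wildtype cells at 20°C. At 30°C XUT_16F-272 had 0 and 31 reads in Hel2-HTP new1Δ cells and 0 and 25 in Hel2-HTP wildtype cells. Untagged cells at 30°C had 90 and 3 reads of XUT_16F-272. Their mean was 37.1 RPM, against 11.1 RPM in Hel2-HTP new1Δ cells and 8.67 RPM in Hel2-HTP wildtype cells. XUT_15R-430 had 0 and 75 reads in Hel2-HTP new1Δ cells, 130 and 195 in New1-HTP cells and 1 and 1 in Hel2-HTP wildtype cells at 20°C. Both New1-HTP libraries thus had more XUT_15R-430 reads than either Hel2-HTP wildtype library, but the difference did not pass the test (log2 fold change 7.17 ± 3.42 SE, edgeR quasi-likelihood test, Benjamini-Hochberg adjusted p = 0.93).

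XUT_12F-188 and XUT_11R-171 were the most regular. XUT_12F-188 had between 3 and 168 reads and XUT_11R-171 between 8 and 134 in every one of the 10 tagged libraries. Untagged cells at 30°C had 23 and 17 reads of XUT_12F-188, and the 17 reads are 159 RPM, above every tagged library. XUT_11R-171 had 60 and 25 reads in Hel2-HTP new1Δ cells, 49 and 46 in New1-HTP cells and 101 and 23 in Hel2-HTP wildtype cells at 20°C, and its groups overlapped. It had 1 and 1 reads in untagged cells at 30°C, and its reads were identical to those of the intergenic feature INT50-1253.

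XUT_12R-299 was read only in tagged libraries. It had 0 and 0 reads in Hel2-HTP new1Δ cells, 61 and 37 in New1-HTP cells and 24 and 98 in Hel2-HTP wildtype cells at 20°C, and 112 and 18 in Hel2-HTP new1Δ cells and 227 and 26 in Hel2-HTP wildtype cells at 30°C. Its level in Hel2-HTP wildtype cells at 30°C was at least 2.94-fold higher than in untagged cells at 30°C, taking 3 reads per library as the floor, and at least 1.22-fold higher without replicate 1 of Hel2-HTP wildtype. Its reads were within 1.66% of those of Unit274, an antisense transcript of another catalogue.

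Like XUT_9F-4, XUT_16F-272, XUT_12F-188 and XUT_11R-171, the other 3 high members had reads in untagged as well as tagged libraries. These 3 were XUT_5F-239, XUT_1F-90 and XUT_5R-129. XUT_1F-90 had 1 and 0 reads in Hel2-HTP new1Δ cells, 141 and 91 in New1-HTP cells and 115 and 73 in Hel2-HTP wildtype cells, against 0 and 71 in untagged cells at 20°C. The 71 reads are 686 RPM, above every tagged library. The features closest to these 3 were SUTs, with identical reads for XUT_5F-239 (SUT098), a 22.4% difference for XUT_1F-90 (SUT004) and a 15.7% difference for XUT_5R-129 (SUT514). For XUT_9F-4, XUT_14F-269, XUT_16F-272, XUT_12F-188 and XUT_15R-430 the closest feature differed by 32.3% to 51.7% in sum. For XUT_9F-4 and XUT_15R-430 that feature was NUP192, a nuclear pore gene on chromosome X, and MUM2, a gene of meiotic mRNA methylation on chromosome II, so neither shares a position with the XUT. For XUT_16F-272 it was SUV3, which lies on the chromosome of the XUT name (XVI) and differed by 51.7%, and overlap was not tested.

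**Figure D5:**
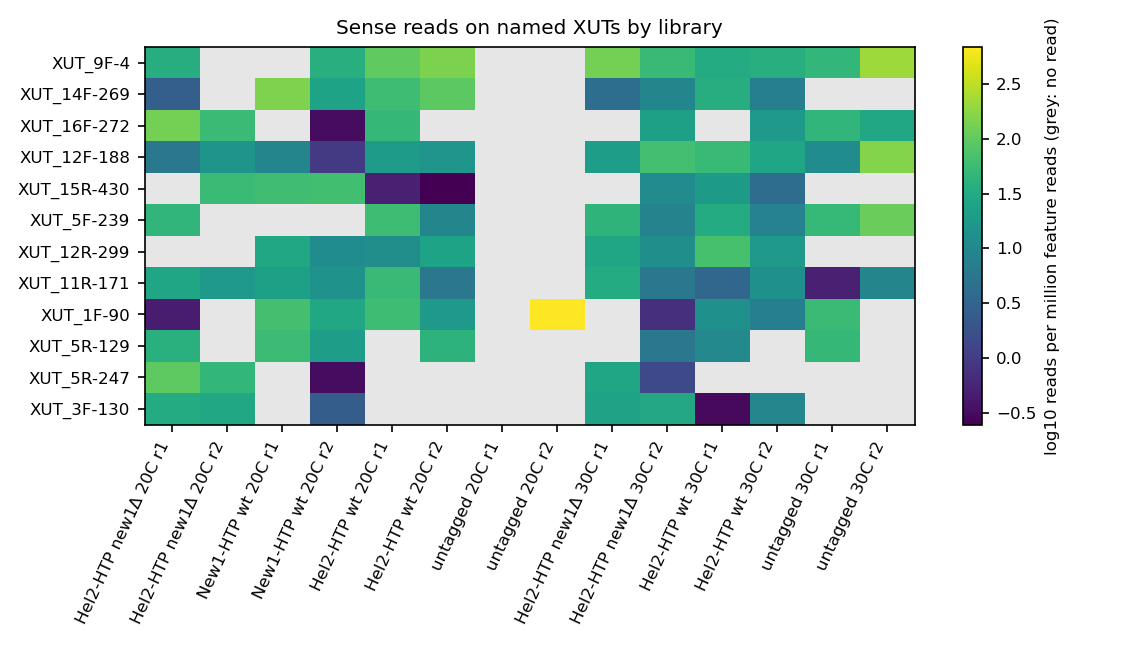
Colour gives log10 of RPM for 12 named XUTs (rows) in the 14 libraries (columns), and grey marks no read. XUT_12F-188 and XUT_11R-171 are coloured in all tagged columns, XUT_12R-299 in no untagged column, and XUT_5R-247 in all Hel2-HTP new1Δ columns and no Hel2-HTP wildtype column.

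Fitted across all features, no XUT was called in any comparison between groups. For Hel2-HTP new1Δ against wildtype at 20°C, 144 XUTs passed the filter on low counts, 0 were called (edgeR, adjusted p threshold 0.05) and 1 had an unadjusted p under 0.05, while 37 of 6350 features (0.583%) were called. DESeq2 called 2 XUTs there, XUT_5R-247 and XUT_3F-130, with 5.26% of all features called by that tool, and gave no adjusted p for 135 of the 144. At 30°C, 0 of 144 XUTs were called by edgeR and by DESeq2, 0 had an unadjusted p under 0.05 in edgeR, and 0.0945% of features were called. DESeq2 called 1.13% of features and gave no adjusted p for 142 of these 144 XUTs.

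New1-HTP against Hel2-HTP wildtype at 20°C had 63 tested XUTs, none called by edgeR or DESeq2 and 0 with an unadjusted p under 0.05, beside 0.0387% of features called, and DESeq2, which called 1.01% of features, gave no adjusted p for any of the 63. Hel2-HTP wildtype at 20°C against 30°C had 144 tested, none called by either tool and 0 under 0.05, beside 0.189% of features, with 1.26% of features called by DESeq2 and no adjusted p from it for 135 XUTs. Against untagged cells, 0 of 138 XUTs were called for Hel2-HTP wildtype at 30°C by edgeR, with 2 under an unadjusted 0.05 and 1.11% of features called, and DESeq2, with 8.82% of features called and no adjusted p for 123 XUTs, called XUT_12R-299. At 20°C, 0 of 63 were called for Hel2-HTP wildtype (1 under 0.05, 1.75% of features called) and 0 of 63 for New1-HTP (1 under 0.05, 1.45% of features called), and DESeq2 called XUT_1F-90, higher in untagged cells, in both, with 5.28% and 4.82% of features called and no adjusted p for the other 62 XUTs.

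Among XUTs with reads in both groups, directions were mixed except against untagged cells. In Hel2-HTP new1Δ against wildtype at 20°C, 27 of 45 were higher in new1Δ, with a median log2 fold change of 0.66 for XUTs and -0.18 for all features with reads in both groups. Of those features, 1778 of 3810 were higher. Over the 9 XUTs with reads in all 4 libraries the median turned to -0.46. At 30°C, 62 of 106 XUTs and 2868 of 5781 features were higher, with medians of 0.28 for XUTs and -0.01 for all features. In Hel2-HTP wildtype against untagged cells at 30°C, 75 of 85 XUTs and 2217 of 3985 features were lower in Hel2-HTP wildtype. The medians were -1.55 for XUTs, -2.06 for SUTs and -0.29 for all features. The XUT count takes in only XUTs with a read in the shallower untagged libraries. Of the 138 tested XUTs, another 33 had reads only in Hel2-HTP wildtype and 18 only in untagged cells at 30°C. The same held for 1533 and 149 of all 5701 features tested. Of the 144 XUTs tested at 20°C, another 20 had reads only in new1Δ and 46 only in wildtype, and 33 had no read in those 4 libraries. Of all 6350 features tested, 437 had reads only in new1Δ, 1562 only in wildtype and 541 in neither.

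XUT_5R-247 and XUT_3F-130 were the members that DESeq2 placed higher in new1Δ cells at 20°C. XUT_5R-247, 736 nt long and with reads identical to antisense345 and to YER187W-as, had 212 and 65 reads in Hel2-HTP new1Δ cells at 20°C, against 0 and 0 in Hel2-HTP wildtype cells. It had 110 and 2 reads in Hel2-HTP new1Δ cells at 30°C, against 0 and 0 in Hel2-HTP wildtype cells. New1-HTP cells had 0 and 1 reads at 20°C. All 4 Hel2-HTP new1Δ libraries therefore had reads and none of the 4 Hel2-HTP wildtype libraries did, and the level was at least 62.6-fold higher at 20°C and at least 9.42-fold higher at 30°C, with 3 reads per library as the floor. The bound at 30°C rests on replicate 1 (26.8 RPM), because the 2 reads of replicate 2 are 1.43 RPM, under the mean floor of 1.5 RPM, and leave no fold. The 110 reads of replicate 1 at 30°C came from 1 distinct cDNA. The floor takes no account of PCR copies, so both bounds hold for reads and not for molecules. The edgeR adjusted p of XUT_5R-247 was 0.95 at 20°C and 1 at 30°C, and DESeq2 gave 0.0061 at 20°C.

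The gene on the other strand of XUT_5R-247 moved differently. Antisense reads at XUT_5R-247 were identical to the reads of YER187W (chromosome V, 566230 to 566655), and there were 131 and 1 in Hel2-HTP new1Δ cells and 236 and 82 in Hel2-HTP wildtype cells at 20°C. The 212 reads and 131 antisense reads of Hel2-HTP new1Δ replicate 1 at 20°C together came from 14 distinct cDNAs. The 65 reads and 1 antisense read of replicate 2 came from 2, so few molecules underlie the counts. XUT_3F-130, 611 nt long, had 72 and 40 reads in Hel2-HTP new1Δ cells, against 0 and 0 in Hel2-HTP wildtype cells at 20°C, at least 27.0-fold higher. At 30°C it had 98 and 42 reads in Hel2-HTP new1Δ cells, against 1 and 14 in Hel2-HTP wildtype cells, so the read counts did not overlap at either temperature. Its distinct cDNAs of both strands were 8 and 3 in Hel2-HTP new1Δ and 0 and 0 in Hel2-HTP wildtype cells at 20°C. At 30°C they were 2 and 11 against 1 and 4, which overlapped. The edgeR adjusted p of XUT_3F-130 was 0.95 at 20°C and 1 at 30°C, and DESeq2 gave 0.018 at 20°C. The difference between the new1Δ effects at 20°C and 30°C was past the edgeR threshold for 0 of 144 XUTs, 0 of them at an unadjusted p under 0.05.

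The mRNAs of factors that degrade noncoding transcripts were also counted in these libraries. The list held 25 genes of 5′ to 3′ decay, nonsense-mediated decay, the exosome and its cofactors, and termination of noncoding transcription, of which 22 to 24 passed the filter in each comparison and 0 were called by edgeR, with 0 to 3 at an unadjusted p under 0.05, beside 0.0387% to 1.75% of all features called. DESeq2 called 1 gene of the list in each of 3 comparisons, where it called 4.82% to 8.82% of all features, and 1 gene of 22 to 24 is near that share. These were SET2, a histone methyltransferase that limits cryptic transcription, in Hel2-HTP new1Δ against wildtype at 20°C, DHH1, a decapping activator, in New1-HTP against untagged cells at 20°C, and NAB3, of the Nrd1 termination complex, in Hel2-HTP wildtype against untagged cells at 30°C. In that order of comparisons, DESeq2 gave no adjusted p for 4 of 24, 20 of 22 and 6 of 24 listed genes. XRN1, whose product degrades XUTs, had 153 and 303 reads in Hel2-HTP new1Δ cells, 146 and 790 in New1-HTP cells and 371 and 944 in Hel2-HTP wildtype cells, against 0 and 0 in untagged cells at 20°C. At 30°C it had 317 and 101 reads in Hel2-HTP new1Δ cells and 447 and 167 in Hel2-HTP wildtype cells, against 308 and 4 in untagged cells. Scaled to depth, XRN1 had 68.8 and 219 RPM in Hel2-HTP new1Δ cells and 190 and 233 RPM in Hel2-HTP wildtype cells at 20°C, which overlapped. At 30°C it had 77.1 and 72.1 RPM in Hel2-HTP new1Δ cells and 136 and 116 RPM in Hel2-HTP wildtype cells, which did not overlap, and XRN1 was not called in either comparison. Its log2 fold change at 30°C was -0.65 ± 0.77 SE (edgeR quasi-likelihood test, unadjusted p = 0.41).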

How the data were processed

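CRAC libraries of tagged and untagged yeast were analysed as the hit tables deposited by the authors. The authors mapped single-end reads with Novoalign and counted them with pyReadCounters (1.4.2 at 30°C and 1.4.4 at 20°C per the file headers). The counts the authors deposited are sense reads, antisense reads and cDNAs of both strands together per feature, with a read counted on every feature it overlaps and PCR copies not collapsed. The deposited RPKM values are scaled by feature length and mapped reads, and were used only to recover feature lengths. XUTs, CUTs, SUTs and the closest features are those of the counting annotation. The members and lists were chosen with earlier results of these data known.

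Sense counts were fitted over all features with edgeR 4.0.16 (R 4.3.3, TMM, filterByExpr, quasi-likelihood test), adjusted by Benjamini-Hochberg, and called at 0.05. The replicate number was a block in the new1Δ fits because each replicate was sequenced in one run. Deviations of same-numbered libraries correlated at 0.04 at 20°C and 0.07 at 30°C, too weakly to show pairing in the data. DESeq2 1.42.0, other normalizations, other filters, and the removal of each library were alternatives. Shares were compared by exact permutation tests, two-sided. With 2 libraries a group, p-values cover the spread between these libraries, which may be technical. The XUTs named are the 10 with the highest mean share in tagged libraries, up to 5 called per direction and comparison, their closest features, and any decay-list mRNA called. XUT_5R-247, XUT_3F-130, XUT_7F-475, XUT_2F-340, and the 5 others seen in all tagged libraries were named after their values were seen.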

Additional observations from a re-analysis of the deposited data

How the results depend on the processing

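The alternatives for mapped reads, for the untagged libraries at 20°C, for near-identical features and for sense percent were chosen after seeing the data. The lower XUT share of tagged libraries kept its direction under every denominator and without any library, between -0.34 and -0.186 percentage points with 1 library left out, but missed the threshold for distinct cDNAs (-0.226, exact permutation p = 0.323). The new1Δ minus wildtype share turned positive with protein-coding reads as denominator (0.0115) and for distinct cDNAs (0.0570), and lay between -0.0451 and 0.00892 with 1 library left out. The New1-HTP minus Hel2-HTP share lay between 0.0343 and 0.0723. Sense percent lay between -17.2 and -8.06. The cause of these changes was not tested.

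Counts of called XUTs moved from 0 under these alternatives. DESeq2 called 2 for new1Δ against wildtype at 20°C, 1 for Hel2-HTP wildtype against untagged at 30°C (with 2, XUT_12R-299 and XUT_14F-269, at a minimum of 10 reads in every tagged library), and 1 for each comparison with untagged at 20°C. Against untagged at 20°C, no filter gave 3 for Hel2-HTP wildtype and 2 for New1-HTP, the replicate block 1 and 1, and leaving out 1 library 0 to 3 in both, all XUT_1F-90, XUT_2F-340 or XUT_7F-475, with 0 without untagged replicate 2. With DESeq2 size factors within edgeR, the XUT medians were 0.91 and 0.36 for new1Δ against wildtype at 20°C and 30°C and -1.40 against untagged at 30°C, in the same directions. The other 5 comparisons stayed at 0 calls with 1 library left out. The replicate block changed no call in the 4 of them fitted both with and without it, and Hel2-HTP wildtype at 20°C against 30°C was not fitted with it.

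Depth limits single XUTs most. An XUT at 0 reads may hold up to 3 reads, which is 0.730 to 2.17 RPM in tagged libraries and 1.54 to 2742 RPM in untagged ones.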
